A study of Mus musculus with 8 samples.

Results

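Aminoacyl-tRNA synthetases join each amino acid to its tRNA, and their transcripts were followed here in hematopoietic stem cells (HSCs) of mice that had lost Mitol (also named Marchf5), the gene of a ubiquitin ligase on the outer mitochondrial membrane. Members were chosen by name: every row of the count table whose symbol is that of a synthetase of the cytosol or of mitochondria, the scaffold proteins Aimp1, Aimp2 and Eef1e1 and the editing factor Aarsd1. Lars2 was left out, since its row is known to collect reads of ribosomal RNA. The rule found 41 of 22065 named genes, namely 21 cytosolic enzymes, 16 mitochondrial enzymes and 4 scaffold and editing factors. All 41 passed the filter on low counts, as did 16444 genes in all. The table uses older symbols for most cytosolic enzymes, such as Aars for the gene now named Aars1.

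Each of the 8 libraries held RNA of 100 HSCs, sorted from bone marrow as Lineage-, EPCR+, CD150+ and CD48- cells of C57BL/6 mice aged 8 to 10 weeks. The Mitol KO group had 4 libraries from mice with both Mitol alleles flanked by loxP sites and with Mx1-Cre, and the Control group had 4 libraries from mice with the same alleles and no Cre. All mice received Poly:IC, and cells were taken 1 week later. The Mx1 promoter answers to interferon, so that Cre was not limited to HSCs. Its action in other cells, in or outside the blood system, is not covered by these libraries. Whether each library came from its own mouse is not given in the labels, so p-values measure the spread between these libraries. For most cytosolic enzymes Control replicate 1 lay above the other Control libraries and Mitol KO replicate 4 below the other Mitol KO libraries, and results are given with and without them.

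A cell keeps separate sets of synthetases for cytosolic and for mitochondrial translation, all encoded in the nucleus. The cytosolic enzymes charge tRNAs for the bulk of protein synthesis. Some of them are held together with the scaffold proteins in the multisynthetase complex, and others work alone. The mitochondrial enzymes serve only the translation of the few mRNAs of mitochondrial DNA. Uncharged tRNA is sensed by the kinase GCN2, whose signal raises translation of the transcription factor ATF4, and many genes of cytosolic synthetases are known ATF4 targets. HSCs are known for a low rate of protein synthesis.

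Counts on named genes ran from 7214935 to 12398138 per library. The members took between 0.262% and 0.361% of them, and the row of Lars2 alone between 0.525% and 0.935%. The deleted gene, Marchf5, gave 276, 232, 308 and 281 normalized counts in Mitol KO replicates 1 to 4 and 299, 312, 333 and 262 in Control replicates 1 to 4 (log2 fold change -0.15, standard error 0.13, edgeR adjusted p = 0.498), so the total over the gene did not tell the groups apart. Such a total cannot show the loss of single exons. A normalized count is the raw count over the library's DESeq2 size factor. Of 10 HSC markers, 8 had a log2 fold change below 0, 3 fell and 0 rose at an adjusted p under 0.05, where 3.75% of all tested genes fell. Kit and Hlf, abundant in all libraries, were among those that fell, with log2 fold changes of -0.75 and -0.79 (adjusted p = 0.00705 and 0.00381; 4 of 4 libraries for each). The markers above 0 were Slamf1, the gene of CD150, at 0.56 with separate groups (adjusted p = 0.0501), and Ly6a, the gene of Sca-1, at 0.76 (adjusted p = 0.0605), neither past the threshold.

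In Control HSCs the cytosolic enzymes had the highest median level. Levels between genes were compared as normalized counts per kilobase of the canonical transcript. Vars, the valyl-tRNA synthetase, stood first at 1195 ± 55.9 (SD, n = 4), and no other member's library reached its lowest value. Farsa, the catalytic chain of phenylalanyl-tRNA synthetase, followed at 485 ± 30.4, next to Kars (lysine) at 461 ± 75.8, whose libraries overlapped those of Farsa. The first mitochondrial enzyme in the order was Tars2 (threonine) at 331 ± 16.6. At the low end lay Mars2 at 28.2 ± 3.10, Nars2 at 24.4 ± 2.76 and Yars2 at 18.3 ± 2.72, the mitochondrial enzymes for methionine, asparagine and tyrosine. Their place depends on canonical transcripts of 11.294, 6.933 and 6.748 kilobases. Before division by length, Mars2 had a Control mean of 319 normalized counts, above Hars at 257. Yars2 shares 50.25% of its exonic bases with Dnm1l on the opposite strand. The medians over members were 213 for cytosolic enzymes, 73.9 for mitochondrial enzymes and 65.4 for scaffold and editing factors. Within a set, levels ran from 55.2 to 1195 for cytosolic and from 18.3 to 331 for mitochondrial enzymes. Neighbours in the order overlapped between libraries except Vars with Farsa and Aimp1 with Cars2, so the order of the others is not settled beyond the spread.

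**Figure D1:**
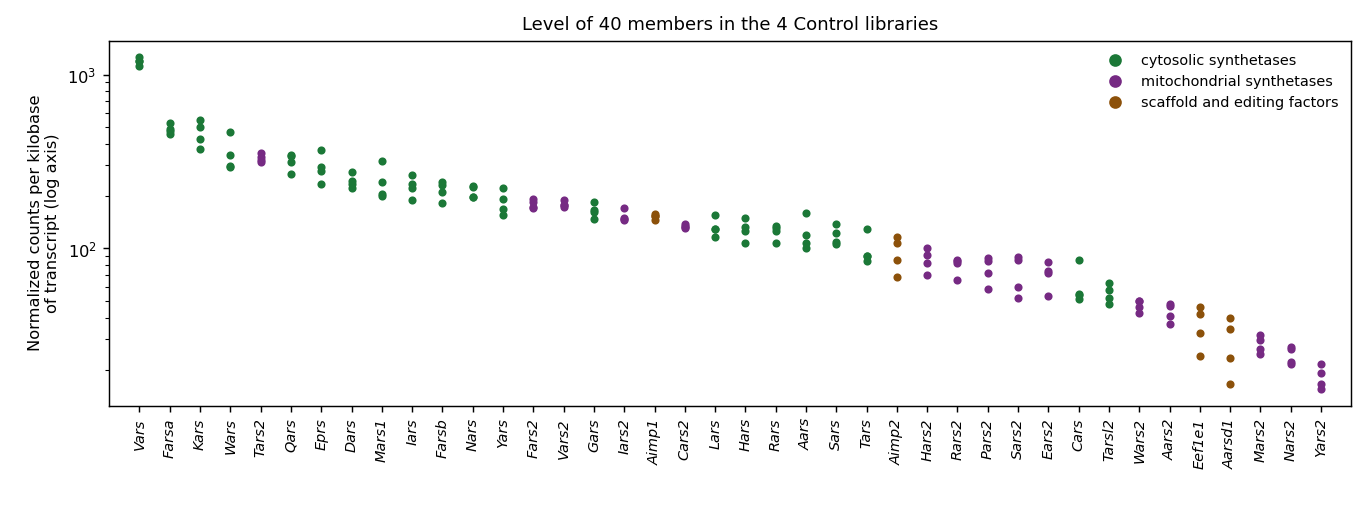
Level of 40 members in the 4 Control libraries, as normalized counts per kilobase of transcript on a log axis, with members ordered by their mean and coloured by set. Vars lies above all others, and mitochondrial enzymes fill most of the lower end, with Tars2 at 331 as the highest of them.

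Between Mitol KO and Control HSCs, all 21 cytosolic enzymes had a log2 fold change above 0, where 47.7% of all tested genes did. Their median log2 fold change was 0.38, from 0.10 for Dars to 0.74 for Aars, and the median over all tested genes was -0.02. Of these enzymes 5 rose (Aars, Hars, Tars, Vars and Kars) and 0 fell at an adjusted p under 0.05 in edgeR's quasi-likelihood fit, with Benjamini-Hochberg adjustment over all tested genes. In the same test 8.43% of all tested genes changed, 4.68% higher and 3.75% lower, so that 55.6% of the calls were higher, against 41.3% with upper-quartile scaling and 42.1% with library totals. For 8 of the 21, namely Hars, Vars, Kars, Farsb, Rars, Lars, Farsa and Qars, every Mitol KO library lay above every Control library, which held for 8.17% of all tested genes, and the reverse, seen in 7.18% of them, held for 0 of the 21. The 16 mitochondrial enzymes were split, with 10 above 0 and 6 below, a median of 0.06, and 1 that rose. All 4 scaffold and editing factors were above 0, with a median of 0.27, and 0 passed the threshold. With upper-quartile scaling the mitochondrial median was -0.0060 with 7 above 0, and with library totals it was 0.00069 with 8, while all 21 cytosolic enzymes stayed above 0 under both. In bulk libraries, more cells with a transcript and more of it per cell cannot be told apart.

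**Figure D2:**
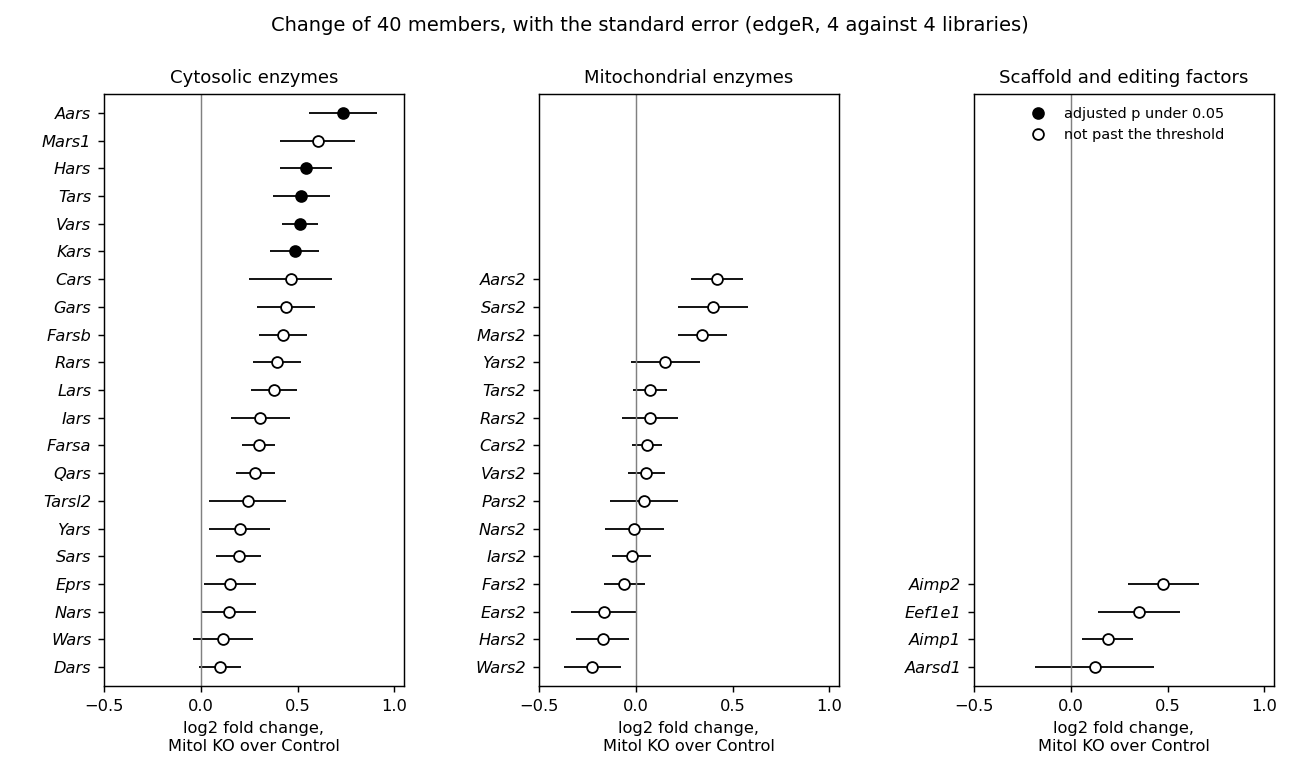
Log2 fold change of 40 members between Mitol KO and Control HSCs with its standard error from edgeR (4 against 4 libraries), in panels by set. Filled points are the 5 with an adjusted p under 0.05. Cytosolic enzymes all lie right of 0, from 0.10 to 0.74, while the 15 mitochondrial enzymes plotted lie on both sides, from -0.22 to 0.42.

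Leaving out each library in turn left all 21 cytosolic enzymes above 0 in each of the 8 fits, with a median between 0.29 and 0.44. The number that passed the threshold was less steady. It was 12 without Mitol KO replicate 4, 7 without Control replicate 1, 2 without Mitol KO replicate 1, and 1 without any of the other 5 libraries. Calls over all tested genes moved with it, from 167 higher genes without Control replicate 2 to 1482 without Mitol KO replicate 4. Vars kept its call throughout. Hars, Tars and Kars kept theirs without Mitol KO replicate 4 or Control replicate 1 and lost it without any other library, and Aars kept it also without Mitol KO replicate 1. DESeq2, the tool of the study, gave 11 cytosolic and 2 mitochondrial enzymes, where it placed 8.19% of all tested genes among the higher ones.

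Vars had the lowest p-value of all members. It gave 6197, 7542, 7234 and 8237 normalized counts in Mitol KO replicates 1 to 4 and 5327, 5071, 5086 and 4749.7 in Control replicates 1 to 4, so the groups did not overlap and the Control libraries lay close together. The means were 7302 ± 848 and 5058 ± 237 (SD, n = 4), a 1.43-fold difference in edgeR's fit, or 0.51 on the log2 scale (standard error 0.093, edgeR adjusted p = 0.0107; 4 of 4 Mitol KO libraries above every Control library). It was the one member that stayed past the threshold in all 8 fits without a library. Vars lies at chr17:35219871-35235305 of GRCm39 on the plus strand. Unlike the other cytosolic enzymes, it was highest in Mitol KO replicate 4.

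Aars, which charges alanine tRNA and also clears wrongly attached serine, had the largest log2 fold change of all members. Its normalized counts were 1067, 1581, 1172 and 909 in Mitol KO replicates 1 to 4 and 921, 620.3, 689 and 578 in Control replicates 1 to 4. Mitol KO replicate 4 lay just below Control replicate 1, and the other libraries of the groups were apart. The log2 fold change was 0.74 (standard error 0.18, edgeR adjusted p = 0.0277; 3 of 4 libraries), and the call held in 3 of the 8 fits without a library. The gene spans chr8:111754391-111784296 on the plus strand. Its canonical transcript shares 23.0% of its exonic bases with Exosc6 on the same strand, so part of its count could be split between them.

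Tars, the threonine enzyme, was also highest among the controls in replicate 1. It gave 645, 625, 514 and 500.4 normalized counts in Mitol KO replicates 1 to 4 and 516, 363, 362 and 338 in Control replicates 1 to 4. Control replicate 1 reached the lower Mitol KO libraries, and the other 3 Control libraries lay within a narrow range below them. The log2 fold change was 0.52 (standard error 0.15, edgeR adjusted p = 0.0487; 2 of 4 libraries above every Control library), and the call held in 2 of 8 fits without a library and was lost with upper-quartile scaling and with library totals. Tars lies at chr15:11382387-11399775 on the minus strand and shares no exonic base with a neighbour. Its relative Tarsl2, a cytosolic enzyme that also charges threonine tRNA, showed a log2 fold change of 0.24 (adjusted p = 0.474).

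Kars is a member of the multisynthetase complex, and a form of the same gene serves mitochondria, so its transcripts stand for both compartments. Its normalized counts were 1779, 1647, 1483 and 1320.4 in Mitol KO replicates 1 to 4 and 1304, 1021, 1183 and 892 in Control replicates 1 to 4, with the lowest Mitol KO library just above the highest Control library. The log2 fold change was 0.48 (standard error 0.13, edgeR adjusted p = 0.0366; 4 of 4 libraries), past the threshold in 2 of 8 fits without a library. Kars lies at chr8:112719747-112738004 on the minus strand.

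Hars, the histidine enzyme, gave 401, 419, 367 and 330.1 normalized counts in Mitol KO replicates 1 to 4 and 299, 251, 266 and 214 in Control replicates 1 to 4. The groups did not overlap. Its log2 fold change was 0.54 (standard error 0.13, edgeR adjusted p = 0.030; 4 of 4 libraries), and the call held in 2 of 8 fits without a library. Of its canonical exonic bases 18.25% are shared with genes on the opposite strand, among them its mitochondrial partner Hars2, and the strand setting of the counting is not given in the sources used here.

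**Figure D3:**
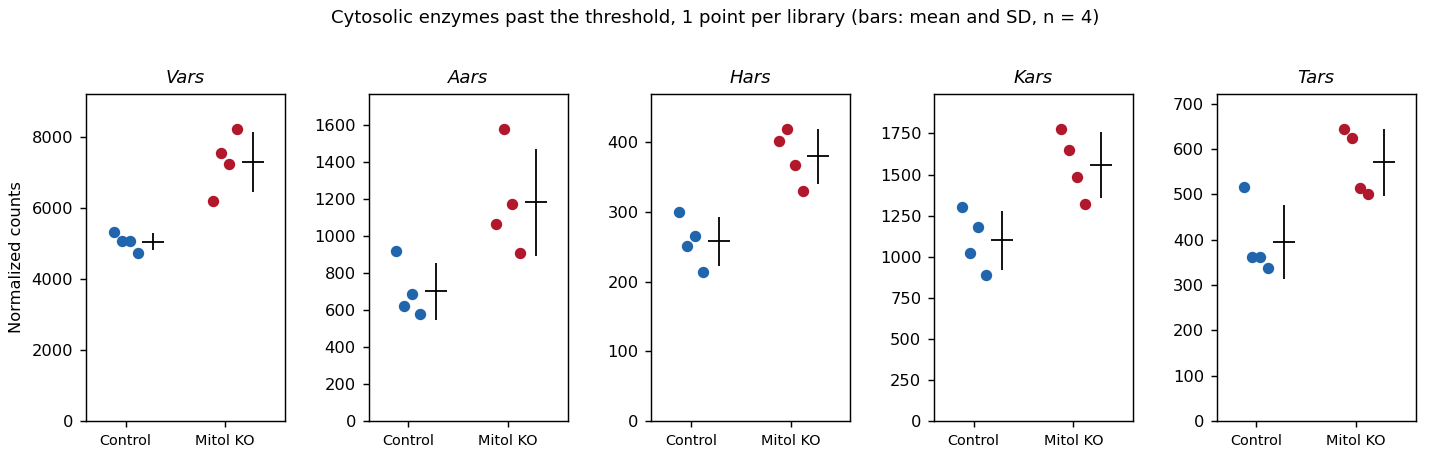
Normalized counts of the 5 cytosolic enzymes past the threshold in each library, with blue points for the 4 Control and red points for the 4 Mitol KO libraries and bars for mean and SD. Groups are apart for Vars, Hars and Kars. For Aars and Tars, 1 Control library lies within the range of the Mitol KO libraries.

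The other 16 cytosolic enzymes were not past the threshold in edgeR, with log2 fold changes from 0.10 to 0.60 and adjusted p from 0.0532 to 0.679. Mars1, which charges the initiator methionine tRNA as well as the elongator, had the largest of them, with 981, 1487, 1127 and 768 normalized counts in Mitol KO replicates 1 to 4 and 938, 603, 709 and 588 in Control replicates 1 to 4 (log2 fold change 0.60, standard error 0.19, adjusted p = 0.0705). Here the Mitol KO libraries spread widely, and replicate 4 lay within the controls. Both chains of phenylalanyl-tRNA synthetase, Farsa and Farsb, had separate groups and log2 fold changes of 0.30 and 0.42 (adjusted p = 0.0532 and 0.0558). DESeq2 placed Mars1, Gars, Farsb, Rars, Lars and Farsa past the threshold in addition to the 5. At the lower end, Dars, the aspartate enzyme of the complex, gave 629, 619, 615 and 512 in Mitol KO replicates 1 to 4 and 619, 497, 547 and 526 in Control replicates 1 to 4 (log2 fold change 0.10, adjusted p = 0.594).

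Enzymes inside and outside the multisynthetase complex were compared by their counts. The 8 enzymes of the complex (Dars, Eprs, Iars, Kars, Lars, Mars1, Qars and Rars) had a median log2 fold change of 0.34 with 1 that rose, where 4.68% of all tested genes did. The 13 outside it had a median of 0.42 with 4 that rose. The difference between these sets was not tested. The scaffold proteins of the complex were lower in count. Aimp2 gave 289, 327, 318 and 225 normalized counts in Mitol KO replicates 1 to 4 and 233, 186, 253 and 150.0 in Control replicates 1 to 4 (log2 fold change 0.48, standard error 0.18, adjusted p = 0.118), but 64.6% of its canonical exonic bases are shared with Eif2ak1 on the opposite strand. Aimp1, whose cleaved form is a secreted cytokine, had separate groups, with 207, 201, 212 and 185 and 175, 176, 167 and 179.6 in the same order (log2 fold change 0.19, adjusted p = 0.382). Eef1e1, another scaffold protein of the complex, showed a log2 fold change of 0.35 (adjusted p = 0.317). Aarsd1, which removes serine from alanine tRNA, was the least counted member at 30 to 85 raw counts, at a log2 fold change of 0.12 (standard error 0.31), and it shares 73.9% of its exonic bases with a neighbour on the same strand.

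Synthetases fall into 2 classes by the fold of their catalytic domain. Of the cytosolic enzymes, 1 of 10 in class I (Vars) and 4 of 11 in class II (Aars, Hars, Tars and Kars) rose, with medians of 0.34 and 0.42, where 4.68% of all tested genes rose. Among the mitochondrial enzymes, 0 of 8 in class I and 1 of 8 in class II rose, with a median of 0.06 in both. These sets were not tested against each other.

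Of the 21 cytosolic enzymes, 13 were listed from general knowledge as ATF4 targets and 8 were not. The median log2 fold change was 0.38 in the listed enzymes with 3 that rose (Aars, Tars and Vars), where 4.68% of all tested genes did. It was 0.35 in the others with 2 that rose (Hars and Kars). Relative to the Control mean, the median log2 level of the 13 listed enzymes was 0.29, 0.63, 0.34 and 0.01 in Mitol KO replicates 1 to 4 and 0.29, -0.10, 0.01 and -0.20 in Control replicates 1 to 4. For the 8 others it was 0.50, 0.51, 0.25 and 0.29 in the Mitol KO libraries and 0.18, -0.06, 0.07 and -0.20 in the Control libraries. Groups did not overlap for 2 of the 13 and 6 of the 8, which was so for 8.17% of all tested genes, and the difference between the 2 sets was not tested.

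Promoters were read from RefSeq's table on GRCm38.p6, which held 31 of the 41 members and covers 250 bases before to 50 after each start. The search took TGATGNAA, the composite element bound by ATF4 with C/EBP factors, on both strands. The element was in 5 of 14 cytosolic promoters (35.7%), 0 of 13 mitochondrial ones and 0 of 4 scaffold and editing factors, where 4.51% of all promoters and 2.71% of those of 10758 tested genes matched by symbol held it. The E-box CACGTG, which does not overlap it in these promoters, was in 4 of 14 (Aars, Tars, Farsb and Iars), in 1 of 13 (Ears2) and in 0 of 4, against 8.09% and 11.6%. The promoters of Hars, Vars, Rars, Lars, Cars, Nars, Wars, Hars2 and Pars2 were not analysed here. Stretches that hold the composite element are shown, 30 bases each with the element in capitals, 5′ to 3′ along the gene and placed on GRCm39 by exact match, since these are the letters that the 5 genes share and the 13 mitochondrial promoters lack in this window. GENCODE places each of the 5 stretches shown in an untranslated part of an exon of at least 4 transcripts of the gene. For Aars these do not include the canonical transcript, from which its length and shared bases were taken.
Aars, chr8:111760472-111760501, plus strand, element 9 bases after the RefSeq start: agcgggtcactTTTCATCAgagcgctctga
Tars, chr15:11399741-11399770, minus strand, element 15 bases before the start: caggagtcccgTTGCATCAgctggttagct
Gars, chr6:55014945-55014974, plus strand, element 30 bases before the start: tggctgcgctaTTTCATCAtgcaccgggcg
Iars, chr13:49835602-49835631, plus strand, element 7 bases after the start: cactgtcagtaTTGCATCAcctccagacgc
Yars, chr4:129083688-129083717, plus strand, element 3 bases after the start: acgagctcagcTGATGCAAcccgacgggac

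Of the 5 genes with the element, Aars and Tars rose, where 4.68% of all tested genes did. Gars, the glycine enzyme that serves both compartments, showed a log2 fold change of 0.44 (adjusted p = 0.0883), Iars (isoleucine) 0.31 (0.219) and Yars (tyrosine) 0.20 (0.446). Kars rose with no match in its window. In each of the 5 genes with the element, at least 1 Mitol KO library lay below the highest Control library. Most genes overlap in this way, since only 8.17% of all tested genes had every Mitol KO library above every Control library.

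Aars2, the alanine enzyme, had separate groups among the mitochondrial enzymes, at 265, 288, 248 and 249.7 normalized counts in Mitol KO replicates 1 to 4 and 209.7, 184, 216 and 165 in Control replicates 1 to 4 (log2 fold change 0.42, standard error 0.13, edgeR adjusted p = 0.0705, DESeq2 adjusted p = 0.0284). Sars2 (serine) and Mars2 (methionine) had log2 fold changes of 0.40 and 0.34 (adjusted p = 0.180 and 0.110). The lowest value was that of Wars2 (tryptophan), with 159.7, 197, 202 and 231 in Mitol KO replicates 1 to 4 and 240.0, 223, 242 and 206 in Control replicates 1 to 4 (log2 fold change -0.22, standard error 0.15, adjusted p = 0.359), where the groups overlapped. A further 11 mitochondrial enzymes had log2 fold changes from -0.17 for Hars2 to 0.15 for Yars2. Summed over the set, mitochondrial enzymes gave 6452 to 6982 normalized counts in the Mitol KO libraries and 6144 to 6372 in the Control libraries. The sums of cytosolic enzymes were 22388 to 27424 and 16466 to 20751. Vars alone gave 6197 to 8237 and 4750 to 5327 of these, so the gap between the sums rests in large part on 1 gene.

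For 12 amino acids a cytosolic and a mitochondrial enzyme were paired, and each pair was compared within every library. The cytosolic log2 fold change exceeded the mitochondrial one in 11 of 12 pairs, with a median difference of 0.33 and the largest, 0.71, for histidine. Valine was 1 of 2 amino acids whose ratio separated the groups. How often the ratios of other gene pairs do so was not computed. Vars2 gave 801, 975, 776 and 820.0 normalized counts in Mitol KO replicates 1 to 4 and 793, 788, 849 and 772 in Control replicates 1 to 4 (log2 fold change 0.06, adjusted p = 0.758), and the ratio of Vars to Vars2 was 7.74, 7.74, 9.32 and 10.0 in the Mitol KO libraries against 6.72, 6.43, 5.99 and 6.15 in the Control libraries. For arginine, the ratio of Rars to Rars2 was 1.66 to 2.39 in Mitol KO and 1.44 to 1.59 in Control libraries, the other pair whose ratios did not overlap.

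The other called enzymes gave wider ratios. For histidine, Hars2 gave 243, 253, 255 and 288 in Mitol KO replicates 1 to 4 and 235, 335, 306 and 276 in Control replicates 1 to 4 (log2 fold change -0.17, adjusted p = 0.462), and the ratio of Hars to Hars2 was 1.15 to 1.66 against 0.749 to 1.28. Threonine had Tars2 at 889.9, 905, 939 and 827 and 845, 789.5, 817 and 887 in the same order (log2 fold change 0.07), with a ratio of 0.547 to 0.725 against 0.381 to 0.610. Alanine had both enzymes above 0, and its ratio was 3.64 to 5.49 against 3.19 to 4.39. The exception was serine. The difference between the enzymes of a pair was not tested.

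**Figure D4:**
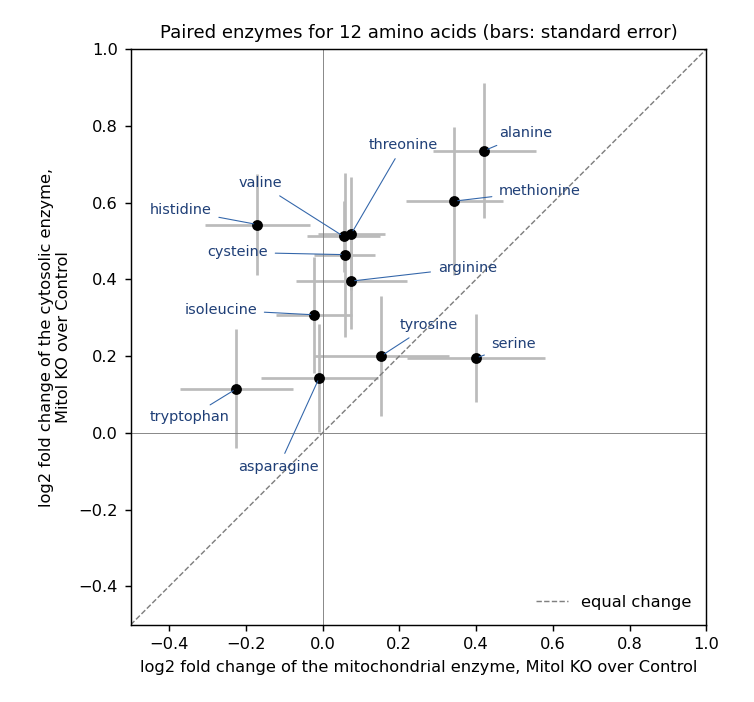
Log2 fold change of the cytosolic enzyme (vertical axis) against that of the mitochondrial enzyme (horizontal axis) for 12 amino acids, with standard errors as bars and a dashed line of equal change. In 11 pairs the point lies above the line, and serine lies below it.

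The cytosolic enzymes were high or low in the same libraries. Relative to the Control mean, their median log2 level was 0.33, 0.60, 0.30 and 0.18 in Mitol KO replicates 1 to 4 and 0.23, -0.09, 0.02 and -0.20 in Control replicates 1 to 4, so that Control replicate 1 lay above Mitol KO replicate 4. Mitol KO replicate 2 was the highest of its group for 14 of the 21 enzymes and replicate 4 the lowest for 16. Control replicate 1 was the highest of its group for 16, and replicate 4 the lowest for 14. Mitol KO replicate 2 exceeded every Control library in 20 of 21 enzymes, replicate 1 in 15, replicate 3 in 14 and replicate 4 in 9. The mitochondrial medians stayed between 0.04 and 0.12 in the Mitol KO libraries and between -0.06 and 0.07 in the Control libraries.

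**Figure D5:**
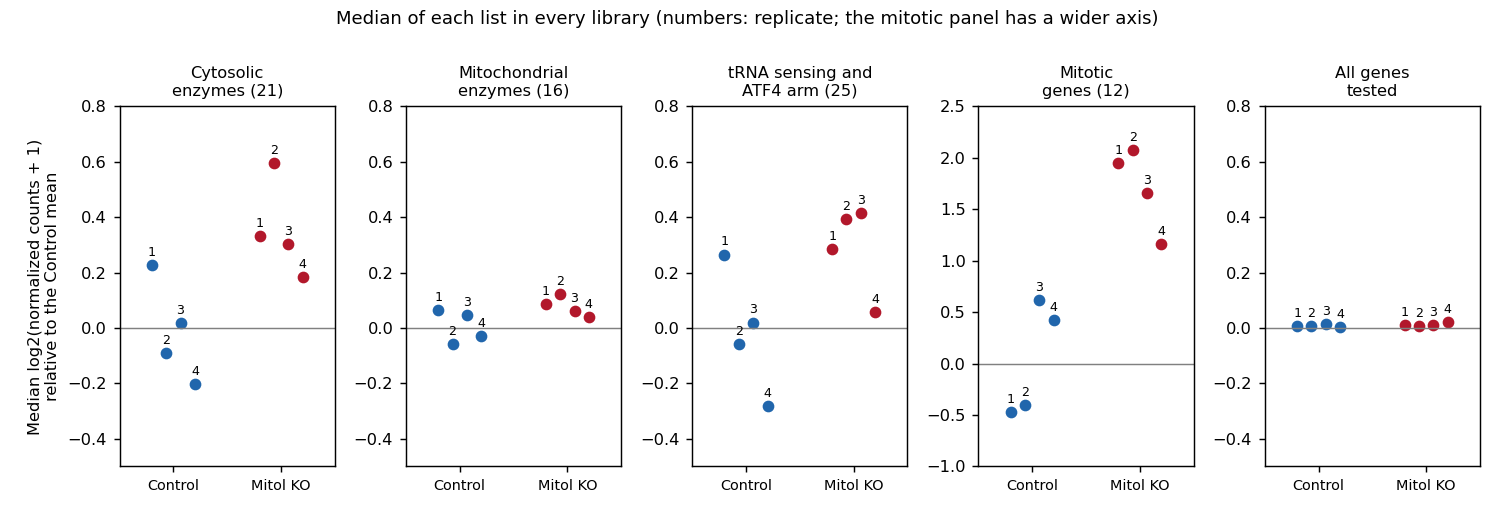
Median over each list of log2(normalized counts + 1) relative to the Control mean, per library (numbers are replicates); the panel of mitotic genes has a wider axis. For cytosolic enzymes, Mitol KO libraries run from 0.18 to 0.60 and Control libraries from -0.20 to 0.23, while mitotic genes put Control replicate 1 among the lowest, at -0.47.

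Other lists moved beside the enzymes. All 12 mitotic genes rose, where 4.68% of all tested genes did. Mki67 had a log2 fold change of 1.08 and Rrm2 one of 2.18 (adjusted p = 0.0197 and 0.00344; 3 of 4 and 4 of 4 libraries). The median level of the 12 mitotic genes was 1.95, 2.08, 1.66 and 1.16 in Mitol KO replicates 1 to 4 and -0.47, -0.41, 0.62 and 0.42 in Control replicates 1 to 4. Mitol KO replicate 4 was the lowest of its group in both lists, whereas Control replicate 1, the highest for cytosolic enzymes, was the lowest for mitotic genes. Cd48, whose protein marks cells that the sort leaves out, rose from 11.8 ± 7.24 to 39.6 ± 17.4 normalized counts (log2 fold change 1.72, adjusted p = 0.0450; 4 of 4 libraries). It belongs to a list of 6 genes of the sorting gate. Of 4 tested there, 2 were above and 2 below 0, and Cd48 alone passed the threshold. Erythroid genes summed to 1179.5 to 5307 normalized counts in Mitol KO and 471 to 934 in Control libraries. Of 6 tested, 2 rose, where 4.68% of all tested genes did, namely Gata1 (log2 fold change 3.30, adjusted p = 0.00381; 4 of 4 libraries) and Hbb-bt (log2 fold change 1.29, adjusted p = 0.0442; 4 of 4 libraries). Mitol KO replicate 3 had the highest sum. Without that library all 21 cytosolic enzymes were still above 0, with a median log2 fold change of 0.40 and 1 past the threshold. That fit does not remove the erythroid difference, since Mitol KO replicates 1, 2 and 4 had sums of 1179.5, 1250 and 2175, above every Control library.

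Of 34 listed markers of other lineages, 10 were tested, namely 2 of 9 neutrophil, 5 of 6 macrophage, 1 of 7 B cell, 1 of 6 T cell and 1 of 6 mast cell and basophil genes, and the others had no row or too few counts. In edgeR 0 of the 10 passed the threshold and 2 had an unadjusted p under 0.05, and DESeq2 placed 1 of them past it (Prtn3). Of 5 megakaryocyte genes tested among 7 listed, Pf4 fell (log2 fold change -1.69, adjusted p = 0.0202), where 3.75% of all tested genes fell. The megakaryocyte list summed to 2593 to 6856 normalized counts in Mitol KO and 3503 to 5551 in Control libraries. Neutrophil genes summed to 485 to 1023 normalized counts in Mitol KO and 405 to 616 in Control libraries. Prtn3 gave most of each sum, at 462 to 1006 and 332 to 566. S100a8 and S100a9, genes of mature neutrophils, had too few counts for the test in edgeR. S100a8 gave 1.56, 0, 0 and 0 normalized counts in Mitol KO replicates 1 to 4 and 0, 31.9, 19.8 and 51.2 in Control replicates 1 to 4 (DESeq2 adjusted p = 0.0284), and S100a9 was at 0 in all Mitol KO libraries and at 2.64 to 21.3 in Control libraries. For Mitol KO and then Control libraries, the sums were 316 to 430.2 and 194 to 308 for macrophage genes, 136 to 150.3 and 145 to 204 for B cell genes, 153 to 229.6 and 146 to 155 for T cell genes, and 7.32 to 13.8 and 11.3 to 21.1 for mast cell and basophil genes. The defining genes Cd3e, Cd3g, Ms4a1 and Pax5 had no row. The part of the mitotic, erythroid and other marker genes in the result was not tested.

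The steps around tRNA charging were followed in lists from general knowledge. Of the 4 genes that complete mitochondrial glutaminyl-tRNA and formylmethionyl-tRNA, all were above 0 and Qrsl1, a subunit of the amidotransferase, rose, with 419.5, 368, 310.3 and 261 normalized counts in Mitol KO replicates 1 to 4 and 270.4, 211, 184 and 228 in Control replicates 1 to 4 (log2 fold change 0.59, adjusted p = 0.0495; 3 of 4 libraries). Among 5 tested genes of tRNA proofreading and recycling 0 passed, with a median of 0.05. Of 20 tested genes of tRNA maturation and export, 16 were above 0 with a median of 0.17. Of these 1 rose, near the 4.68% of all tested genes that did, namely Pop1, a protein of RNase P (log2 fold change 0.56, adjusted p = 0.0421; 4 of 4 libraries). The 20 genes of the RNA polymerase III machinery, which makes the tRNAs, had a median of 0.05, with 11 above 0 and 0 past the threshold.

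Elongation factors include the proteins that take charged tRNA to the ribosome. Of 9 tested, 3 rose and 0 fell (4.68% and 3.75% of all tested genes), with a median of 0.25. Eef1b2 and Eef1g, subunits of the exchange factor of the cytosol, had log2 fold changes of 0.33 and 0.46 (adjusted p = 0.0371 and 0.0208; 4 of 4 libraries for both). Tufm, the mitochondrial elongation factor that carries charged tRNA, gave 352, 391, 290.2 and 275 normalized counts in Mitol KO replicates 1 to 4 and 216, 209.6, 204 and 163 in Control replicates 1 to 4 (log2 fold change 0.70, adjusted p = 0.0192; 4 of 4 libraries). Every Mitol KO library lay above every Control library for 4 of the 9, among them these 3, which held for 8.17% of all tested genes.

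The list of uncharged tRNA sensing and the ATF4 arm held 25 tested genes, with a median log2 fold change of 0.31, 15 above 0, 3 that rose and 0 that fell (4.68% and 3.75% of all tested genes). Slc7a5, an importer of large neutral amino acids, showed a log2 fold change of 0.81, Mthfd2, a mitochondrial folate enzyme, 1.62, and Vldlr, a lipoprotein receptor, 1.87 (adjusted p = 0.0388, 0.0354 and 0.00823; 3 of 4, 3 of 4 and 4 of 4 libraries). The transcripts of the sensors and transcription factors themselves did not pass the threshold and lay on both sides of 0. Atf4 gave 1059.8, 1297, 1562 and 1472 normalized counts in Mitol KO replicates 1 to 4 and 1881, 1525, 1714 and 920.5 in Control replicates 1 to 4 (log2 fold change -0.18, adjusted p = 0.589), and ATF4 is controlled mainly at translation, which counts do not show. Eif2ak4, the gene of GCN2, showed a log2 fold change of -0.17 (adjusted p = 0.236), and Ddit3, the gene of CHOP, -0.30 (adjusted p = 0.320). Above 0 were the transcription factors Atf5 at 0.91, Cebpb at 0.57 and Cebpg at 0.30 (adjusted p = 0.130, 0.20 and 0.137), and the groups were separate for Cebpg. Ddit3 shares 74 exonic bases with Mars1 on the opposite strand. Per library, the list's median was 0.29, 0.39, 0.42 and 0.06 in Mitol KO replicates 1 to 4 and 0.27, -0.06, 0.02 and -0.28 in Control replicates 1 to 4, with Control replicate 1 again the highest control and Mitol KO replicate 4 the lowest of its group.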

How the data were processed

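The authors aligned reads to mm39 with STAR, merged the alignments (SAMtools) and let Subread count reads on each gene. The deposited values are these raw counts. Annotation and strand setting are not given in the sources used here. Of 23094 rows in the table, none sums to under 11 counts. The 1029 rows without a symbol (0.335% to 0.467% of a library's counts) were left out. Each library came from 100 cells, which with library totals of 7214935 to 12398138 limits precision, and PCR copies were not told apart by molecular identifiers.

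Mitol KO and Control libraries, 4 each, were compared in edgeR 4.0.16 (R 4.3.3) by its quasi-likelihood test after TMM normalization, its default filter on low counts, condition as the only term and Benjamini-Hochberg adjustment over 16444 genes, at 0.05. Normalized counts rest on size factors from DESeq2 1.42.0, and log2 levels use a pseudocount of 1. The number of libraries beside an adjusted p counts the Mitol KO libraries that lie past all Control libraries on the side of the change. Lengths and positions are those of the canonical transcript in GENCODE vM39 on GRCm39, the assembly also named mm39. Alternatives covered scaling, the filter, DESeq2, limma-voom (limma 3.58.1), the replicate number as a block, and each library left out. The fits were tested on simulated counts in which 200 genes had an absolute log2 fold change of 2. At 0.05, edgeR recovered 98% of these genes, DESeq2 97.5% and limma-voom 98%. False genes made up 7.98%, 15.9% and 9.26% of their calls in the same order. Changes as small as those of the members were not simulated.

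The members and lists were chosen with earlier results of these data known, and no test was run on a list as a whole. Values in every library are given for members past the threshold, their partner in the other compartment, and the largest rise and fall in each compartment. Of other pathway lists, the text names members past the threshold and Atf4, Eif2ak4 and Ddit3. The per-library values of Mars1, Aars2, Aimp1 and Aimp2, the values of Atf5, Cebpb and Cebpg, and the genes named from the marker lists, were chosen after values were seen. Values of 1 member, of some marker genes and of 1 promoter stretch are not reported here.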

Additional observations from a re-analysis of the deposited data

Results flagged for a closer look

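Within groups of 4 libraries, 4 of the 82 group-and-member combinations had 1 library far from the other 3, with a gap over the limit of Dixon's test, where chance gives about 1 in 20. Tars was at 516 normalized counts in Control replicate 1 and at 338 to 363 in the other Control libraries. Cars, the cysteine enzyme, was at 580.3 in Control replicate 1 against 345 to 368. Dars was at 512 in Mitol KO replicate 4, below the 615 to 629 of the other Mitol KO libraries. Iars2, the mitochondrial isoleucine enzyme, was at 956 in Control replicate 4 against 819 to 842, and 38.4% of its canonical exonic bases are shared with Rab3gap2 on the opposite strand.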

How the results depend on the processing

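Of the 41 members' log2 fold changes under the 8 settings with all libraries, 306 values kept direction and side of the threshold, 9 came to pass it, 4 no longer passed and 9 changed sign. Of those with a library left out, the numbers were 274, 11, 30 and 13. Direction and calls of the cytosolic enzymes are limited by 4 libraries a group and by counts as low as 155 a library, and the cause of lost calls was not tested.

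DESeq2 gave 1350 higher and 965 lower genes, 11 cytosolic and 2 mitochondrial enzymes past the threshold. Upper-quartile scaling and library totals gave 0 mitochondrial enzymes each, and mitochondrial medians of -0.0060 and 0.00069. With a library left out, higher genes numbered 167 to 1482, lower genes 192 to 1019, cytosolic enzymes 1 to 12, mitochondrial enzymes 0 to 2, and scaffold and editing factors 0 to 1.

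All sign changes were in members near 0. Cars2 was at -0.0046, Vars2 at -0.0075 and Pars2 at -0.023 with upper-quartile scaling, and Vars2 at -0.00057 and Pars2 at -0.016 with library totals. Nars2 was at 0.0097 with RLE size factors, 0.015 with no filter and 0.0079 with DESeq2, and Iars2 at 0.0023 with no filter. Over the fits without a library the ranges were -0.0039 to 0.12 for Rars2, -0.015 to 0.11 for Vars2, -0.067 to 0.13 for Pars2, -0.068 to 0.048 for Nars2, -0.050 to 0.055 for Iars2, -0.084 to 0.0033 for Fars2 and -0.067 to 0.33 for Aarsd1.

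Deviations of same-numbered libraries had correlations of 0.078, -0.067, 0.046 and 0.064, and 4 of 8 libraries correlated best with their own number. With so few libraries, these values cannot settle whether the numbers pair the samples. With the replicate number as a block, 957 genes were higher and 695 lower, 6 cytosolic and 1 mitochondrial enzymes rose, and the cytosolic and mitochondrial medians were 0.38 and 0.05.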
